A study of Mus musculus with 30 samples.

Results

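The label of starvation and low-insulin response genes was not tested here for each of its members. The 10 genes under it are Ddit4, Sesn1, Txnip, Trp53inp1, Fbxo32, Irs2, Igfbp1, Lpin1, Pim3 and Cdkn1a. They were measured in newborn mice that lack the orphan nuclear receptor ERRγ and in wild-type mice. Every probe set was taken whose annotation gave one of these symbols alone, which yielded 19 probe sets for the 10 genes, of 22626 probe sets and 12393 genes on the Affymetrix MOE430A array. The genes had been picked because their signals were higher in null than in wild-type arrays of this same series. Their differences between genotypes are therefore given as a description, without a test, and carry no weight as evidence that such genes respond. Contrasts between wild-type tissues and the other genes of the pathways were not used in that choice, and these were tested. The wild-type values did enter it, since the null signals were compared with them. The pathway lists were drawn with earlier results of these arrays known, so the direction of their genes is not independent evidence.

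Liver, stomach, kidney, brain and salivary tissue were each taken from neonatal ERRγ null and neonatal wild-type mice of mixed SV129/C57BL/6 background, with 3 arrays in each of the 10 groups and 30 arrays in all. Animals of both genotypes had standard chow and water without restriction according to the labels, their sex is recorded as unknown, and no treatment was given. Neither the null allele nor the number of animals per array is described, and nothing states that the 3 arrays of a group are separate animals. Xist, an RNA of the inactive X given below, was high on some and low on other arrays of each group. The arrays of a group are therefore not all from the same RNA, but those alike in Xist could be. The p-values below reflect the spread among these samples alone, which may be partly technical. The series does not record when a pup last fed, nor its blood glucose or insulin. In whole tissue, a change in the share of cells of a type and a change of RNA per cell cannot be told apart.

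Insulin and the insulin-like growth factors act through receptor tyrosine kinases, the insulin receptor substrates, phosphoinositide 3-kinase and the kinase Akt. Akt keeps the FoxO transcription factors out of the nucleus and keeps the growth complex mTORC1 active; when insulin falls, FoxO factors enter the nucleus, and glucocorticoids and glucagon add their own transcriptional response. Birth is itself a fast, because the supply of glucose through the placenta ends and the newborn liver has to make glucose until milk feeding is established.

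Promoter sequences from RefSeq (mouse build GRCm38.p6) were found for 8 of the 10 genes, in 10 windows, and the 250 bases before the start were searched on both strands for short motifs of the fasting response. Txnip was the only one of the 8 with the forkhead motif GTAAACA, which 3.17% of the 32851 promoter windows hold. The core of the insulin response sequence, CAAAACA, was present in Irs2 and Igfbp1, and 5.56% of all windows hold it. The E-box CACGTG was found in Irs2 (6.02% of windows), AGAACA, which is only part of a full glucocorticoid receptor element, in Lpin1 (16.1% of windows), and the cAMP response element TGACGTCA in none of the 8 (1.55% of windows). The motifs searched do not overlap within these matches. The windows with a forkhead or insulin response match are shown because FoxO factors are the known readers of both motifs, with the match in capitals and each window written 5′ to 3′ on the strand of its gene. Txnip lies on the plus strand, window chr3:96557707-96557956, with the match at -121 to -115 from the start. Irs2 lies on the minus strand, window chr8:11008930-11009179, with the match in reverse complement at -37 to -31. Igfbp1 lies on the plus strand, window chr11:7197537-7197786, with the match at -108 to -102.
Txnip: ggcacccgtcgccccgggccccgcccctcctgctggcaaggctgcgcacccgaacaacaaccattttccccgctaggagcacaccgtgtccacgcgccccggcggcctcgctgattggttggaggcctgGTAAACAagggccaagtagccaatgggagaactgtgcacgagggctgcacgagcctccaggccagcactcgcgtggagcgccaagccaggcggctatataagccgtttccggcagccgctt
Irs2: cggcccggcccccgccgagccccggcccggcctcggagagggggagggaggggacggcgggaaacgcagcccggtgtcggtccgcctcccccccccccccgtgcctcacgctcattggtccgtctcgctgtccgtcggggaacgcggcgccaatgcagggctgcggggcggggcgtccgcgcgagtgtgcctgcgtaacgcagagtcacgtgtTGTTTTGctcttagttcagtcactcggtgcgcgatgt
Igfbp1: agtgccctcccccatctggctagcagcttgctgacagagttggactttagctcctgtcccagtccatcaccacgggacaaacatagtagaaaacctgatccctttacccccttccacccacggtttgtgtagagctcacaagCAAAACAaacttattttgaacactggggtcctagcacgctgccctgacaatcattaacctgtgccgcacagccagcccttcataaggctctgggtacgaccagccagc
A match is a description of these letters only, and no binding was measured.

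Values are log2 signals, and a difference is the null mean minus the wild-type mean on that scale, so that a difference of 1 is a 2-fold change. Where a gene has several probe sets, which was so for 7 of the 10, the brightest over all arrays is given unless stated. Array medians lay between 5.80 and 6.08 and the median difference of all tested probe sets between 0.01 and 0.03 in every tissue. Liver, kidney, brain and salivary arrays held the defining markers of their tissue in both genotypes. In brain the summed level of skeletal muscle markers was 6.83 to 10.3 on null and 6.92 to 7.13 on wild-type arrays. That of salivary gland markers was 5.05 to 8.18 on null and 5.33 to 5.76 on wild-type brain arrays. The part of such RNA in the brain values was not tested. In kidney 3 of 5 tubule markers lay below the wild-type range in null arrays, with the summed level at 12.33 to 12.56 against 12.64 to 12.85, and stomach arrays of null mice had 5 of 5 parietal cell markers below the wild-type range, with the summed level at 9.37 to 9.54 against 12.22 to 12.32. Esrrg, which encodes ERRγ, has 1 dim probe set of unknown place relative to the deleted part, so the genotype could not be checked on it. Xist, an RNA of the inactive X, was high in arrays 1 and 2 and low in array 3 of each wild-type group, and low in array 1 and high in arrays 2 and 3 of each null group.

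Across the 50 combinations of 10 genes and 5 tissues, the null mean was above the wild-type mean in 47, every null value lay above every wild-type value in 33, and in none did all null values lie below. The null mean was at least 2-fold higher in 24 combinations. The difference was widest in liver, where all 10 genes were separated and the median difference was 2.28, and in salivary tissue, where 9 of 10 were separated with a median difference of 1.88. Stomach followed with 7 of 10 and a median of 1.05, then kidney with 6 of 10 and 0.86, and brain with 1 of 10 and 0.29. Of all tested probe sets, 15.3% were separated upward in liver, 13.1% in salivary tissue, 22.4% in stomach, 10.1% in kidney and 8.14% in brain; since the genes were picked on these differences, nothing is read from that contrast. Counting all 19 probe sets, 87 of the 95 combinations with tissue had the higher mean in null arrays. A filter on dim signals was passed by 8 of the 10 genes in brain, all 10 in kidney and stomach, and 9 in liver and in salivary tissue. The genes under it were Fbxo32 and Igfbp1 in brain, Fbxo32 in liver and Igfbp1 in salivary tissue. Fbxo32 in kidney and Irs2 in stomach and salivary tissue passed through their null arrays, since their wild-type means of 5.17, 4.96 and 5.09 lay under the filter levels of 5.39, 5.35 and 5.37.

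**Figure D1:**
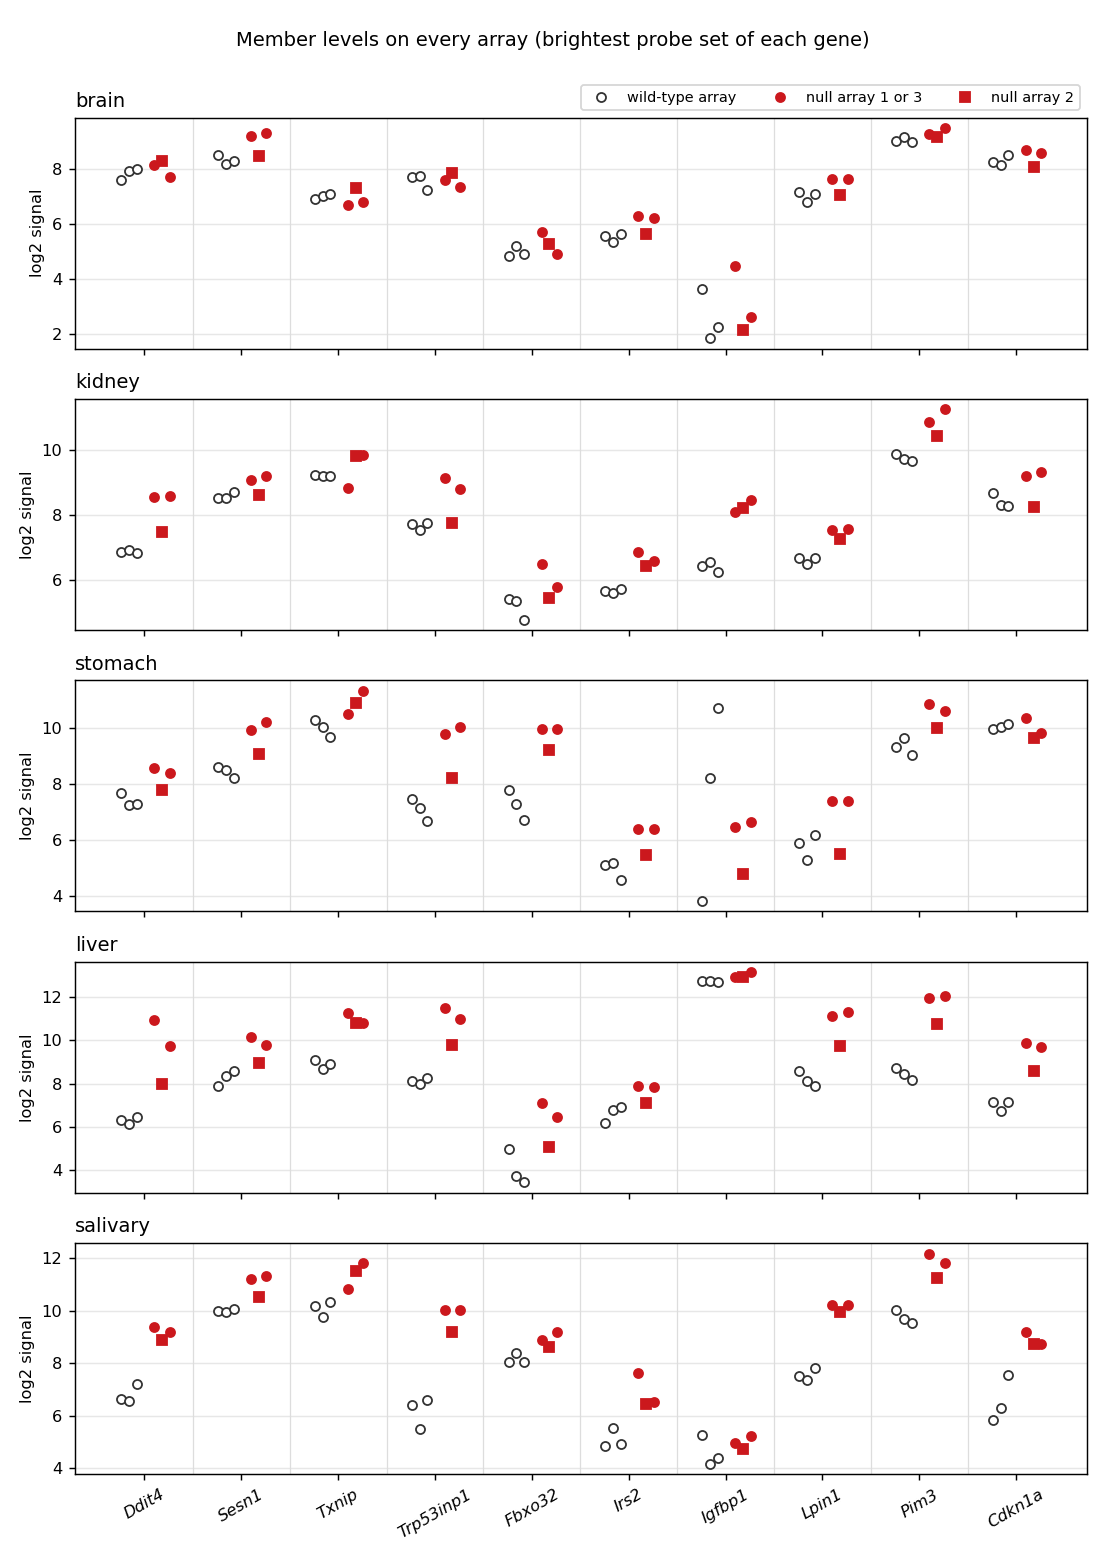
Log2 signal (vertical axes) of the brightest probe set of each of the 10 genes (horizontal axis) on all 30 arrays, 1 panel per tissue, with open circles for wild-type arrays, filled circles for null arrays 1 and 3 and squares for null array 2. In liver all 10 genes have every null value above every wild-type value, while in brain only Pim3 does; vertical scales differ between panels.

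The 2 members that brake mTORC1 had their widest differences in liver. Ddit4 (REDD1) is induced by fasting, glucocorticoids and hypoxia and lowers mTORC1 activity through the TSC complex. In liver it read 6.31, 6.13 and 6.44 on wild-type and 10.91, 8.0 and 9.74 on null arrays. The groups lay far apart, and the null arrays were also spread widely among themselves, with array 1 highest and array 2 lowest. The difference was 3.26 ± 0.56 (SE of the limma fit, here and below, taken from the fit over all probe sets for a gene too dim for the filter), or 9.56-fold. In salivary tissue Ddit4 read 6.64, 6.57 and 7.20 against 9.39, 8.88 and 9.18, a difference of 2.35 ± 0.21. In kidney it read 6.85, 6.92 and 6.84 against 8.57, 7.47 and 8.59, a difference of 1.34 ± 0.26. The groups were separated in both tissues, with null array 2 the lowest of its group in each. In stomach Ddit4 read 7.67, 7.23 and 7.28 against 8.56, 7.76 and 8.39, separated by a small margin, and in brain 7.60, 7.93 and 7.99 against 8.12, 8.27 and 7.71, which overlapped.

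Sesn1, a sestrin that senses amino acids and restrains mTORC1 through the GATOR complexes, was higher by similar amounts in liver, stomach and salivary tissue. In liver it read 7.88, 8.33 and 8.58 on wild-type and 10.16, 8.95 and 9.78 on null arrays (difference 1.37 ± 0.29). In stomach it read 8.58, 8.48 and 8.22 against 9.92, 9.07 and 10.21 (1.31 ± 0.26). In salivary tissue it read 9.97, 9.95 and 10.08 against 11.22, 10.53 and 11.31 (1.02 ± 0.19). All 3 tissues were without overlap. In kidney the values 8.52, 8.54 and 8.70 and 9.10, 8.63 and 9.20 overlapped (0.39 ± 0.15). In brain, 8.5, 8.18 and 8.27 against 9.19, 8.45 and 9.31 overlapped too, although the difference of 0.67 ± 0.20 was the largest of any of the 10 genes there. The other Sesn1 probe sets were higher in null liver by 1.63 and 1.66 and in stomach by 1.64 and 1.32. They went apart from the first and from each other elsewhere. One overlapped in salivary tissue (0.72) and was separated in kidney (0.84), and the other was separated in salivary tissue (1.52) and overlapped in kidney (0.24). In brain they pointed in opposite directions, at -0.24 and 0.33.

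Irs2 and Igfbp1 belong to insulin and growth factor signalling itself. Irs2 encodes the insulin receptor substrate that FoxO factors raise when insulin is low. It was separated in 4 tissues. In salivary tissue it read 4.83, 5.54 and 4.90 on wild-type and 7.62, 6.45 and 6.51 on null arrays (1.77 ± 0.35). In liver it read 6.16, 6.78 and 6.90 against 7.90, 7.09 and 7.84 (1.0 ± 0.27). In kidney it read 5.66, 5.60 and 5.73 against 6.85, 6.43 and 6.58 (0.96 ± 0.16). Liver was thus close to overlap through null array 2, and kidney was clear of it despite a similar difference. In stomach Irs2 read 5.12, 5.17 and 4.58 against 6.38, 5.47 and 6.37 (1.12 ± 0.29), and in brain 5.54, 5.34 and 5.63 against 6.28, 5.63 and 6.19 (0.53 ± 0.22), where null array 2 equalled the highest wild-type value.

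Igfbp1, the binding protein for insulin-like growth factors that the liver secretes when insulin is low, had a pattern of its own. In kidney it was the most changed of the 10 genes, at 6.44, 6.57 and 6.24 on wild-type and 8.10, 8.23 and 8.47 on null arrays (1.85 ± 0.14, or 3.60-fold). The 3 null kidney arrays lay close together and well clear of the wild-type ones. In liver it read 12.71, 12.73 and 12.69 against 12.90, 12.90 and 13.13 (0.27 ± 0.09). These were separated, but they lie near the top of the scale, whose highest value in the whole data set was 13.45. In stomach Igfbp1 read 3.82, 8.22 and 10.69 in wild-type arrays 1 to 3 against 6.44, 4.78 and 6.62, a difference of -1.63 ± 1.4 with complete overlap. Serum albumin, Alb, a hepatocyte gene, read 5.93, 10.25 and 11.90 on those wild-type arrays and 6.81, 6.19 and 7.06 on the null ones, and all 8 of 8 measured hepatocyte markers had the same order across the 3 wild-type arrays. Their summed level spanned 11.35 to 13.95 in wild-type and 11.02 to 11.62 in null stomach. Once the 2 high-Alb wild-type arrays were left out, a choice made after the data were seen, the Igfbp1 difference turned to 2.13 against the 1 remaining array. In brain (3.61, 1.83 and 2.24 against 4.45, 2.14 and 2.61) and salivary tissue (5.27, 4.16 and 4.39 against 4.94, 4.73 and 5.22) the gene was dim and the groups overlapped; with values below 5 raised to 5 the difference was 0 in brain and -0.02 in salivary tissue.

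Txnip limits glucose uptake and binds thioredoxin, and glucose raises it through the factor MondoA or ChREBP while FoxO and other signals act on it too. Its liver values were 9.10, 8.67 and 8.92 on wild-type and 11.26, 10.77 and 10.78 on null arrays (2.04 ± 0.18). In salivary tissue it read 10.17, 9.75 and 10.33 against 10.84, 11.51 and 11.82 (1.31 ± 0.24). In stomach it read 10.28, 10.01 and 9.66 against 10.49, 10.87 and 11.31 (0.91 ± 0.21). No values overlapped in these 3 tissues, and array 1 rather than array 2 was the lowest null array in salivary tissue and stomach. Kidney differed, with 9.23, 9.22 and 9.22 against 8.85, 9.83 and 9.86, where null array 1 fell below the wild-type values. In brain the values 6.88, 7.01 and 7.08 against 6.68, 7.31 and 6.80 overlapped (-0.06 ± 0.18). The dimmer Txnip probe set was higher in null liver by 1.66, salivary tissue by 1.28 and stomach by 0.65, and read -0.02 in kidney.

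Lpin1 and Fbxo32 act on fat and muscle stores. Lpin1 encodes lipin 1, a phosphatidate phosphatase that also coactivates fatty acid oxidation with PGC-1α and is induced in fasted liver by glucocorticoids. In liver its values were 8.58, 8.13 and 7.89 on wild-type and 11.10, 9.71 and 11.28 on null arrays (2.50 ± 0.37), and 7.49, 7.34 and 7.82 against 10.22, 9.93 and 10.21 in salivary tissue (2.57 ± 0.16). The gap was as wide in salivary tissue as in liver, with less spread among null arrays. In kidney Lpin1 read 6.69, 6.49 and 6.69 against 7.53, 7.27 and 7.58, separated at 0.84 ± 0.14. In stomach it read 5.90, 5.27 and 6.17 against 7.38, 5.51 and 7.38. Null array 2 there lay within the wild-type range while the other two lay well above it (0.98 ± 0.47). The second Lpin1 probe set differed by 2.48 in liver, 2.65 in salivary tissue, 1.02 in stomach and 0.97 in kidney. In brain the first read 7.15, 6.80 and 7.09 against 7.64, 7.06 and 7.62, with overlap at 0.43 ± 0.18.

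Fbxo32 encodes atrogin-1, a ubiquitin ligase subunit that FoxO factors induce in wasting muscle. At this probe set stomach had its widest difference, with 7.76, 7.28 and 6.70 on wild-type against 9.94, 9.19 and 9.94 (2.44 ± 0.28, or 5.44-fold). In salivary tissue it read 8.04, 8.38 and 8.03 on wild-type and 8.88, 8.60 and 9.19 on null arrays (0.74 ± 0.18), and in kidney 5.40, 5.34 and 4.78 against 6.50, 5.45 and 5.79 (0.74 ± 0.29). Both were separated, kidney by a narrow margin. In liver the gene was dim, at 4.96, 3.73 and 3.44 against 7.12, 5.06 and 6.47 (2.17 ± 0.58, and 1.22 with values below 5 raised to 5). In brain the values 4.82, 5.18 and 4.89 against 5.71, 5.26 and 4.88 overlapped. The second probe set disagreed in size in salivary tissue, where it read 3.33, 3.07 and 2.98 against 6.25, 5.76 and 5.99 (2.87 ± 0.35) and did not pass the filter on dim signals, and in stomach, where it differed by 0.93 ± 0.30.

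Trp53inp1, Cdkn1a and Pim3 bear on stress, the cell cycle and survival. Trp53inp1 is a target of p53 and FoxO factors that acts in autophagy. In salivary tissue it had the widest difference of all 50 combinations, with 6.39, 5.47 and 6.58 on wild-type against 10.04, 9.17 and 10.03 (3.60 ± 0.32, or 12.1-fold). A dimmer second probe set, under the filter there, differed by 1.76 in salivary tissue, or 3.39-fold. Liver arrays gave 8.12, 8.0 and 8.25 against 11.47, 9.76 and 10.96 (2.61 ± 0.35), and in stomach 7.46, 7.13 and 6.66 against 9.76, 8.20 and 10.04 (2.25 ± 0.43). Groups were far apart in all 3 tissues, and null array 2 was the lowest null array in each. In kidney the values 7.74, 7.55 and 7.75 met 9.14, 7.75 and 8.80, with null array 2 equal to a wild-type array (0.88 ± 0.29). The second probe set was separated in kidney at 1.04, again under the filter, and differed by 2.01 in liver and 1.22 in stomach. In brain the groups overlapped, at 7.71, 7.72 and 7.23 against 7.59, 7.84 and 7.33 (0.03 ± 0.18).

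Cdkn1a encodes the cell-cycle inhibitor p21, a target of p53, FoxO factors and glucocorticoids. It read 7.14, 6.75 and 7.13 on wild-type liver arrays and 9.89, 8.57 and 9.70 on null ones (2.38 ± 0.31), and in salivary tissue 5.82, 6.30 and 7.54 against 9.18, 8.72 and 8.71 (2.32 ± 0.37). Wild-type salivary array 3 was the highest of its group. Stomach was the exception, with 9.94, 10.04 and 10.12 against 10.34, 9.62 and 9.81 (-0.11 ± 0.17) and -0.57 ± 0.20 at the other probe set. Kidney (8.67, 8.31 and 8.29 against 9.21, 8.25 and 9.32) and brain (8.25, 8.15 and 8.49 against 8.70, 8.05 and 8.56) overlapped.

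Pim3 encodes a serine and threonine kinase that promotes survival and sustains translation. At the brightest probe set of each gene, it was the only one of the 10 without overlap in every tissue. In liver it read 8.72, 8.46 and 8.15 on wild-type and 11.93, 10.74 and 12.03 on null arrays (3.12 ± 0.31, or 8.71-fold), and in salivary tissue 10.03, 9.68 and 9.54 against 12.17, 11.25 and 11.82 (2.0 ± 0.23). Kidney gave 9.90, 9.73 and 9.67 against 10.86, 10.45 and 11.26 (1.09 ± 0.17). The distance to overlap was smallest in brain, where 9.02, 9.15 and 8.97 stood against 9.28, 9.16 and 9.48, with null array 2 barely above wild-type array 2. In stomach it read 9.30, 9.63 and 9.04 against 10.83, 9.98 and 10.59 (1.14 ± 0.22), but a second probe set showed 6.48, 6.42 and 6.34 against 6.80, 6.45 and 6.42 (0.14 ± 0.15), so stomach Pim3 differs between probe sets. That second probe set was higher in null liver by 2.12 and in salivary tissue by 1.75, was separated in kidney (1.0) and overlapped in brain (0.24 ± 0.16). The dimmest one, under the filter in every tissue, differed by 1.02 in stomach and 0.78 in liver, both separated, and by 0.31 in salivary tissue. It overlapped in brain, kidney and salivary tissue.

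**Figure D2:**
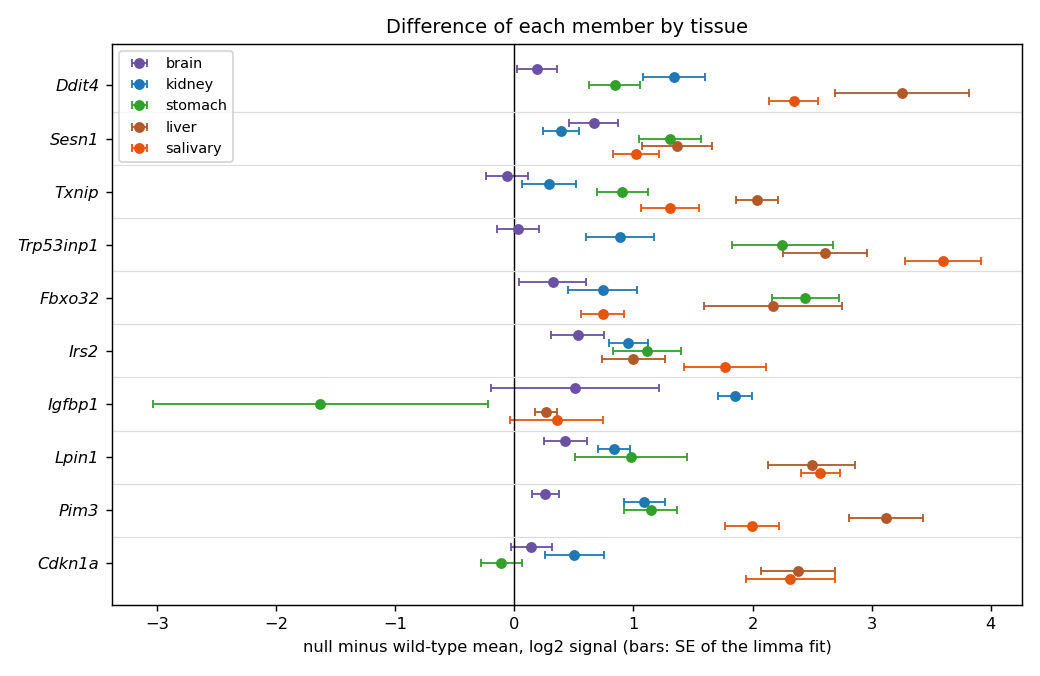
Null minus wild-type difference in log2 signal (horizontal axis) of each gene (vertical axis) in the 5 tissues (colours), with bars for the SE of the limma fit on 3 against 3 arrays. Liver and salivary points lie farthest right, up to 3.60 for Trp53inp1 in salivary tissue; Igfbp1 in stomach, at -1.63, has the widest bar.

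Null arrays of the same tissue did not stand equally high. Null array 2 was the lowest of the 3 in 40 of the 50 combinations, against 5 for array 1 and 4 for array 3, with 1 tie. Over all tested probe sets array 2 was the lowest null array in 39.0% (liver), 36.9% (salivary tissue), 34.4% (stomach), 29.2% (kidney) and 38.2% (brain). The median deviation of the 10 genes from their wild-type means was 2.89, 1.54 and 2.56 on null liver arrays 1 to 3, 2.48, 1.46 and 1.90 in salivary tissue, 1.46, 0.58 and 1.37 in stomach, 1.14, 0.60 and 0.94 in kidney and 0.52, 0.13 and 0.16 in brain. Array 2 thus had the smallest median of the null arrays in each tissue and lay above the 3 wild-type arrays of its own tissue. In brain, at 0.13, it was inside the range of all wild-type medians, which ran from -0.24 to 0.16 over the 5 tissues. In stomach, null array 2 also held more milk transcripts than the other null arrays. β-casein, Csn2, read 5.40, 7.20 and 5.25 on null arrays 1 to 3 and 9.29, 9.33 and 9.5 on wild-type arrays, and whey acidic protein, Wap, read 5.38, 6.88 and 5.26 against 9.20, 10.06 and 10.24. The summed level of the 6 milk markers was 7.55 to 8.89 in null and 10.80 to 11.53 in wild-type stomach, with 4 lower and 1 higher without overlap. The part of milk intake in the members' values was not tested, and the labels do not tie arrays of different tissues to 1 animal.

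**Figure D3:**
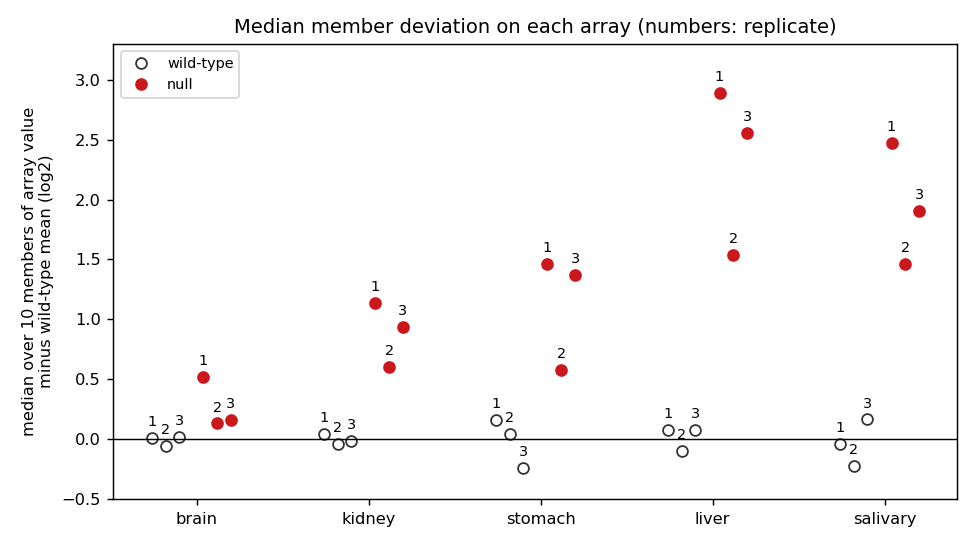
Median over the 10 genes of the array value minus the wild-type mean of the tissue, in log2 units (vertical axis), for every array, numbered by replicate, in the 5 tissues (horizontal axis); open points are wild-type and filled points null arrays. Null array 2 has the smallest null median in each tissue, 1.54 in liver against 2.89 and 2.56.

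Other measures moved with genotype beside these values. In stomach the 3′ minus 5′ signal of the Gapdh control probe sets, a measure of RNA integrity, was 2.40, 3.11 and 2.28 on wild-type and 3.97, 3.82 and 3.53 on null arrays. With it as a covariate the Lpin1 difference in stomach was 2.14 and that of Pim3 0.51. In liver the signal was 4.25, 4.46 and 4.81 on wild-type and 4.16, 4.11 and 3.91 on null arrays. With the covariate, liver differences were smaller for Fbxo32 (1.24), Igfbp1 (0.17), Lpin1 (1.84), Pim3 (2.58) and Cdkn1a (2.33). They were larger for Ddit4 (3.43), Sesn1 (1.80), Txnip (2.07), Trp53inp1 (2.69) and Irs2 (1.37). In salivary tissue, the brown fat gene Ucp1 read 5.99, 4.04 and 12.14 on wild-type and 11.31, 12.75 and 11.02 on null arrays, and the summed level of 6 measured fat markers was 12.08 to 13.94 against 13.56 to 14.60, with 1 of 6 higher without overlap. Skeletal muscle markers were higher without overlap at 6 of 8, with sums of 6.85 to 7.35 against 8.88 to 9.81. Without the 2 wild-type arrays of low Ucp1, chosen after the data were seen, 1 wild-type array remained. All 10 genes then had their 3 null values above that 1 value, as did 31.0% of all tested probe sets, with Trp53inp1 at 3.17, Lpin1 at 2.30, Ddit4 at 1.95 and Cdkn1a at 1.33. The part of muscle RNA and of RNA integrity in the members' values was not tested further.

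Differences between wild-type tissues were not used to choose the genes and could be tested. The wild-type values themselves did enter that choice, because the wild-type mean is subtracted in each genotype difference. A link between wild-type level and genotype difference is therefore partly built in. All 16 member probe sets that passed the filter differed between the 5 tissues (limma F test over the 15 wild-type arrays, Benjamini-Hochberg adjusted over 13576 probe sets), where 87.6% of all probe sets did, so this share is near the background. Igfbp1 had the widest range (limma F test, adjusted p = 4.63e-06). It ran from 12.71 ± 0.02 in liver (SD, n = 3, here and below) through 7.58 ± 3.48 in stomach to 6.42 ± 0.17 in kidney. Below these came salivary tissue at 4.61 ± 0.59 and brain at 2.56 ± 0.93. Neighbours below liver did not pass, in a test with the same SE of 1.09 for every pair, which takes in the wide stomach spread. The kidney values (6.24 to 6.57) all lay above the salivary ones (4.16 to 5.27), and these above the brain ones (1.83 to 3.61). Fbxo32 ran from 8.15 ± 0.20 in salivary tissue and 7.25 ± 0.53 in stomach to 5.17 ± 0.34 in kidney, 4.96 ± 0.19 in brain and 4.04 ± 0.81 in liver (adjusted p = 6.24e-08), and only kidney and brain did not pass as neighbours. Txnip was high in salivary tissue (10.08 ± 0.30) and stomach (9.98 ± 0.31), which did not differ, followed by kidney (9.22 ± 0.01) and liver (8.90 ± 0.22), which did not differ either, and brain (6.99 ± 0.10).

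Cdkn1a stood highest in stomach, at 10.03 ± 0.09 against 8.42 ± 0.21 in kidney, 8.30 ± 0.17 in brain, 7.01 ± 0.22 in liver and 6.55 ± 0.89 in salivary tissue. Sesn1 was higher in salivary tissue, at 9.95 to 10.08 on its 3 arrays, than in the other 4 tissues (means 8.26 to 8.59), whose neighbours did not differ. Lpin1 was highest in liver (8.20 ± 0.35), then salivary tissue (7.55 ± 0.25), brain (7.01 ± 0.19), kidney (6.62 ± 0.12) and stomach (5.78 ± 0.46), of which brain and kidney did not differ. Irs2 too was highest in liver, at 6.61 ± 0.40, above kidney at 5.66 ± 0.07, and its other neighbours did not differ. Trp53inp1 was at 8.12 ± 0.13 in liver and lowest in salivary tissue (6.15 ± 0.59), and the neighbours from liver to stomach did not differ. Ddit4 was lowest in liver (6.29 ± 0.16) and highest in brain (7.84 ± 0.21), and Pim3 was lowest in liver (8.44 ± 0.29), level between kidney (9.77 ± 0.12) and salivary tissue (9.75 ± 0.25).

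**Figure D4:**
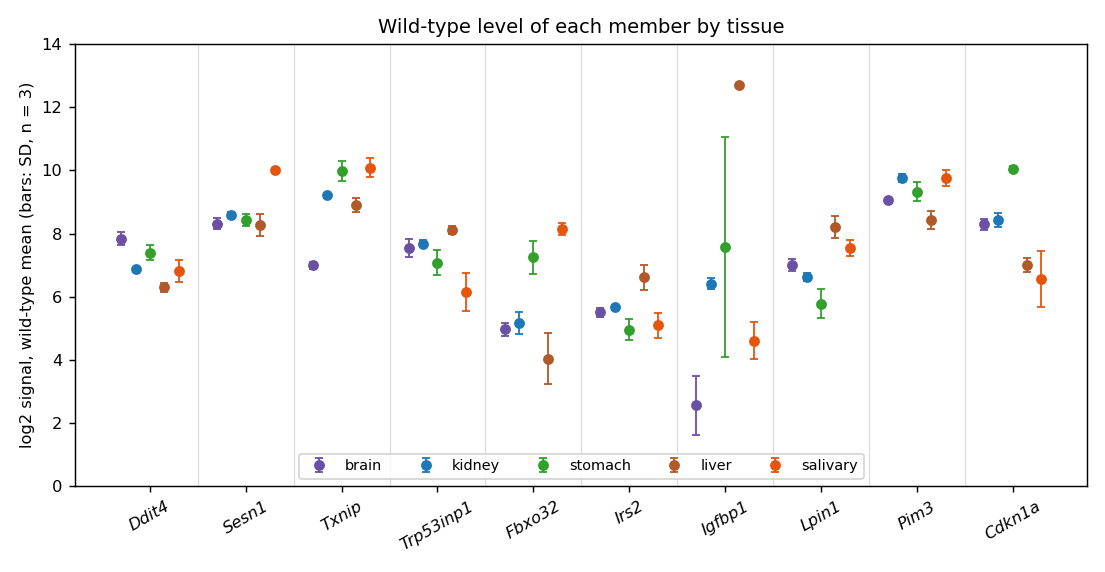
Mean log2 signal of each gene (horizontal axis) on the wild-type arrays of 5 tissues (colours), with bars for the SD over 3 arrays. Igfbp1 spans 2.56 in brain to 12.71 in liver, and the stomach bar of Igfbp1 is wide because its 3 arrays read 3.82, 8.22 and 10.69.

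Of the genes that FoxO factors and fasting control, other than the 10, those that passed the test were higher in null arrays in every tissue where any passed. Of 35 such genes 34 were measured. The gene lists here were drawn with earlier results of these arrays known, so their direction is not independent evidence. In liver 17 of 32 tested rose and none fell (limma, adjusted p under 0.05), with a median difference of 0.72 over the list and 0.03 over all probe sets, of which 3.47% rose and 3.46% fell. In salivary tissue 11 of 32 rose and none fell, with 3.50% of all probe sets rising and 4.72% falling. In stomach 8 of 30 rose and none fell, where 11.2% of all probe sets rose and 12.2% fell, and in kidney 2 of 31 rose (0.412% and 0.368% of all). In brain none of 28 passed by limma, 7 had an unadjusted p under 0.05, and of all probe sets 0% passed. On average over the tissues 19 of 34 rose and none fell, with 11.4% and 11.1% of all probe sets rising and falling. That fit takes the 30 arrays as independent, while Xist followed the array number within each genotype in all 5 tissues, so that same-numbered arrays may come from 1 animal. With the number within a genotype as a random block across tissues, a fit added after the data were seen, 18 of 34 rose and none fell, with 9.76% and 9.78% of all probe sets.

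Pdk4, the kinase that shuts off pyruvate dehydrogenase in fasting, rose in stomach from 7.14 ± 0.28 to 9.60 ± 0.42 (SD, n = 3; limma, adjusted p = 0.000771), in liver from 6.90 ± 0.32 to 9.20 ± 0.28 (adjusted p = 0.00133) and in salivary tissue from 6.97 ± 1.75 to 10.91 ± 0.23 (adjusted p = 0.00953). Ppargc1a, the PGC-1α coactivator of gluconeogenic and mitochondrial genes, rose by 2.74 ± 0.27 (SE) in liver (adjusted p = 0.00193) and by 0.96 ± 0.29 in stomach (adjusted p = 0.0456). Klf15, a glucocorticoid target that directs amino acid breakdown, rose by 1.75 in liver and 2.01 in salivary tissue, and the mitophagy receptor gene Bnip3 by 1.32 and 2.31. These genes follow the naming rule; those in the next sentences were chosen after their values were seen. Foxo3 rose by 1.21 in liver and 1.07 in stomach, and Foxo1 by 1.07 in liver and 1.27 in salivary tissue. The gluconeogenic enzyme genes Pck1 and G6pc were the only 2 that passed in kidney, by 1.01 ± 0.19 (adjusted p = 0.0437) and 0.72 ± 0.14 (adjusted p = 0.0497), and they rose in liver by 0.73 and 1.08.

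Which array was left out mattered. The liver count of 17 became 7, 5 and 6 without wild-type array 1, 2 or 3, 6 and 4 without null array 1 or 3, and 20 without null array 2. The salivary count of 11 became 9, 5 and 8 without wild-type array 1, 2 or 3, 7 and 6 without null array 1 or 3, and 14 without null array 2. Without both wild-type arrays of low Ucp1, the list median in salivary tissue was 0.54. The stomach count of 8 became 5, 4 and 4 without wild-type array 1, 2 or 3, and 3 and 4 without null array 1 or 3. Without null array 2 it became 14, and 1 gene of the list then fell. With the 2 high-Alb wild-type arrays left out, the list median in stomach was 0.30. The kidney count became 6 without null array 2 and 0 without any other array. Over these removals of 1 array, Pdk4 held its call in stomach, liver and salivary tissue, Ppargc1a, Bnip3 and Foxo3 in liver, Foxo3 in stomach, and Klf15, Bnip3 and Foxo1 in salivary tissue. Klf15, Foxo1, Pck1 and G6pc in liver and Ppargc1a in stomach did not in at least 1 removal, with adjusted p up to 0.138. With the Gapdh gap as a covariate no gene of the list passed in liver, stomach or kidney, while the median difference stayed at 0.78 in liver and 0.38 in stomach. In salivary tissue 11 of 32 rose with that covariate. Over all 7 gene lists, the 24 calls in stomach became 0 with that covariate and 0 without the 2 high-Alb wild-type arrays, a fit that keeps 1 wild-type array. The 29 calls in salivary tissue became 3 without the 2 wild-type arrays of low Ucp1, which were Pdk4, Bnip3 and Scd1.

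**Figure D5:**
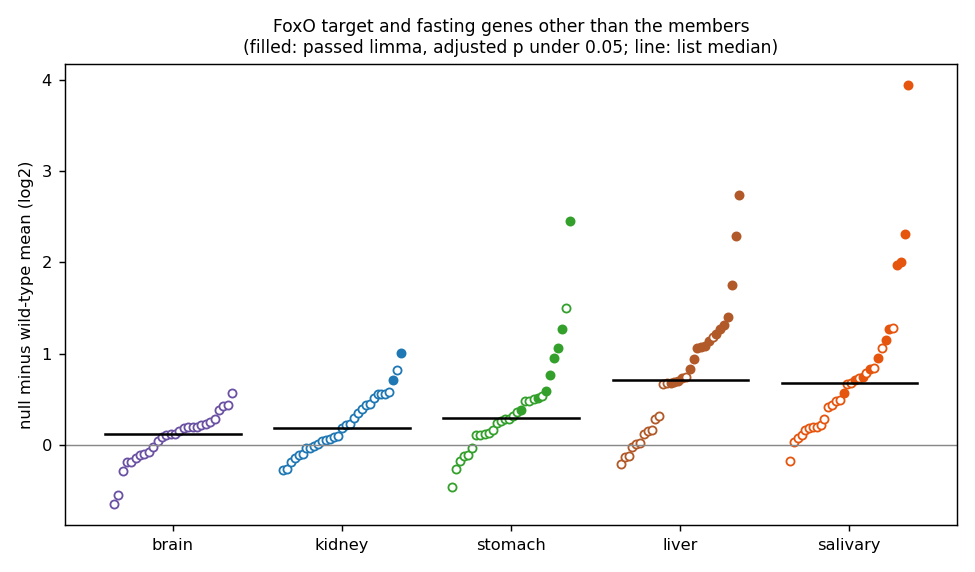
Null minus wild-type difference in log2 signal (vertical axis) of each tested FoxO target and fasting gene other than the 10, sorted within each tissue (horizontal axis); filled points passed limma at an adjusted p under 0.05 and lines mark list medians. The liver median is 0.72 with 17 filled points, the brain median 0.13 with none.

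The signalling genes upstream passed in both directions and in small numbers. Of insulin and IGF signalling genes 2 rose and 2 fell of 29 tested in liver, 2 rose and 1 fell of 27 in stomach, 1 of 28 rose in salivary tissue and none passed in kidney or brain (limma; 3 and 4 with an unadjusted p under 0.05). For comparison here and for the lists that follow, 3.47% of all probe sets rose and 3.46% fell in liver, 11.2% and 12.2% in stomach and 3.50% and 4.72% in salivary tissue. The 3 of 27 in stomach are thus a smaller share than that of all probe sets, and the 4 of 29 in liver a larger one. In liver Igf1, the main circulating growth factor of its kind, fell by 1.34 ± 0.26 on the log2 scale (adjusted p = 0.0194) and Igfals, the subunit that holds it in the circulating complex, fell by 2.31 ± 0.44 (adjusted p = 0.0179). Each lost its call without any 1 of the wild-type liver arrays, Igf1 also without null array 3 (adjusted p up to 0.0815) and Igfals without null array 1 (up to 0.0759). In stomach Igf1 rose by 0.38 (adjusted p = 0.0153; 0.0697 without wild-type array 3) and Igfbp2, another binding protein, fell by 1.77 ± 0.37 (adjusted p = 0.0120). Without the 2 wild-type stomach arrays of high Alb, which leaves 1, Igfbp2 differed by -1.20 (adjusted p = 0.261) and Igf1 by 0.35 (adjusted p = 0.258). Igfbp3, the main partner of circulating IGF-1, rose by 1.34 ± 0.35 in salivary tissue (adjusted p = 0.0458, and 0.149 at most with 1 array left out). Pdpk1 and Socs3 in liver and Pik3r1 in stomach, named after their values were seen, were the others of this list that rose.

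Among mTORC1 and AMPK genes 3 of 25 rose in liver and none fell, 2 rose and 2 fell of 26 in stomach, 1 rose and 1 fell of 25 in salivary tissue, and none passed in kidney or brain (limma; 5 and 2 with an unadjusted p under 0.05). In stomach that is below the 11.2% and 12.2% of all probe sets, and in liver the 3 that rose stand against 3.47%. Sesn2, the relative of Sesn1 that binds leucine, rose by 1.34 ± 0.24 in liver (adjusted p = 0.0154) and 0.89 ± 0.21 in stomach (adjusted p = 0.0182). Ulk1, the kinase that starts autophagy, rose by 0.68 in liver and 0.96 in salivary tissue, and Tsc1, the partner of Tsc2 in the complex that inhibits mTORC1, by 0.76 in liver. Lamtor2, a subunit of the Ragulator scaffold that brings mTORC1 to the lysosome, fell by 1.08 ± 0.12 in stomach (adjusted p = 0.00128), where its call held with each single array left out. It was not called without the 2 high-Alb wild-type arrays (-1.05, adjusted p = 0.0996) nor with the Gapdh gap as covariate (-0.99, adjusted p = 0.273). Sesn2, Ulk1 and Tsc1 lost their calls in some of these removals, with adjusted p up to 0.121. Eif4e, the cap-binding factor, named after its values were seen, fell in stomach and salivary tissue by 0.54 and 0.59, and Eif4ebp1, its inhibitor, rose in stomach by 0.39.

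Genes of amino acid deprivation, which the factor ATF4 controls, passed in both directions. In salivary tissue 4 rose and 7 fell of 32 tested, in stomach 3 and 3 of 30, in liver 2 and 1 of 31, and none passed in kidney or brain (limma; 4 and 6 with an unadjusted p under 0.05). The stomach and liver shares are near those of all probe sets (11.2% and 12.2%, 3.47% and 3.46%), and the salivary ones are above them (3.50% and 4.72%). In salivary tissue the enzymes of serine and asparagine synthesis were lower, a choice of names made after their values were seen: Psat1 fell by 2.17 ± 0.22 (adjusted p = 0.00118), Phgdh by 1.10 ± 0.15 (adjusted p = 0.00359) and Asns by 0.99 ± 0.17 (adjusted p = 0.0104; 0.0535 without wild-type array 2). The alanyl-tRNA synthetase gene Aars fell by 0.99 in salivary tissue and 0.96 in stomach. Cebpb, a leucine-zipper factor of the fasting and acute-phase response, rose by 1.99 ± 0.30 in liver (adjusted p = 0.00718), 0.70 in stomach and 0.73 in salivary tissue, and Ppp1r15a, which reverses the block on translation, by 1.05 in salivary tissue. With 1 array left out, Cebpb in stomach and salivary tissue and Ppp1r15a did not always pass, with adjusted p up to 0.132.

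Among p53 targets other than the members 3 rose and 1 fell of 16 tested in liver, 3 rose of 16 in stomach, 1 of 16 rose in salivary tissue and none passed in kidney or brain (limma; 3 and 2 with an unadjusted p under 0.05). Of all probe sets 3.47% rose and 3.46% fell in liver, 11.2% rose in stomach and 3.50% in salivary tissue. Btg2, an antiproliferative gene, rose by 1.72 in liver and 0.82 in salivary tissue, Ei24, an autophagy gene of the endoplasmic reticulum, by 1.19 ± 0.16 in liver (adjusted p = 0.00476), and Pmaip1 (Noxa), which promotes apoptosis, by 1.09 in stomach. Btg2 and Pmaip1 lost their calls when some arrays were left out, with adjusted p up to 0.165. Perp, a desmosomal gene named after its values were seen, fell by 1.22 in liver and rose by 0.69 in stomach. The transcripts that insulin raises in lipid synthesis changed in both directions. Fasn, fatty acid synthase, fell by 1.36 ± 0.22 in liver (adjusted p = 0.00972) and 1.10 ± 0.19 in stomach (adjusted p = 0.00622), while Scd1, stearoyl-CoA desaturase, fell by 1.76 in stomach and rose by 3.94 ± 0.29 in salivary tissue (adjusted p = 0.000308). Thrsp, a lipogenic regulator, fell by 1.41 in stomach but was higher on average over the 5 tissues, by 0.94 ± 0.33 (adjusted p = 0.0424), with 2.77 in salivary tissue, where it did not pass (adjusted p = 0.0808). Gpam, which starts triglyceride synthesis, rose by 1.33 in liver and 0.78 in salivary tissue. Fasn in liver did not pass without wild-type array 3 (adjusted p = 0.0555) nor Gpam in liver without null array 3 (0.0583), and Gpam in salivary tissue reached 0.152. In that list 1 rose and 1 fell of 11 tested in liver, 2 rose of 13 in salivary tissue, 3 fell of 13 in stomach, and none passed in kidney or brain (limma; 1 and 2 with an unadjusted p under 0.05). In stomach 12.2% of all probe sets fell, and in salivary tissue 3.50% rose.

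Few family relatives of the members passed the test. Of 20 measured relatives, 2 rose and 1 fell of 18 tested in liver, 2 and 1 of 19 in salivary tissue, 1 and 1 of 18 in stomach and none in kidney or brain (limma; 6 and 3 with an unadjusted p under 0.05). The 2 that rose in liver and the 2 in salivary tissue stand against 3.47% and 3.50% of all probe sets, while the stomach shares are below the 11.2% and 12.2% there. Those that rose were Sesn2 and Lpin2 in liver, Pim1 and Igfbp3 in salivary tissue and Sesn2 in stomach. Lpin2, the second hepatic lipin, rose by 1.55 ± 0.20 (adjusted p = 0.00404), and Pim1 by 1.87 ± 0.20 (adjusted p = 0.00141). Cdkn1c, the p57 relative of p21, fell by 1.02 in liver, where the adjusted p rose to 0.0550 with 1 array left out, and by 0.87 in salivary tissue. Irs1, the other main insulin receptor substrate, differed by -0.39 in liver and 0.40 in salivary tissue without passing. Ddit4l averaged 0.07 over the tissues, Sesn3 0.22, Irs4 0.03, Trp53inp2 -0.22, Fbxo25 0.09, Pim2 0.09 and Cdkn1b 0.18. The Txnip relatives Arrdc1 and Arrdc4 averaged 0.13 and -0.30, and Igfbp4, Igfbp5 and Igfbp6 averaged -0.01, 0.16 and 0.19. None of these passed on average or in any tissue, and Lpin3 was too dim to be tested.

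The 10 genes varied together across the 30 arrays after each tissue was centred on its mean, which carries the genotype difference they were chosen for. Pearson's r of a gene with the mean of the other 9 was 0.957 for Pim3, 0.956 for Lpin1, 0.945 for Ddit4, 0.928 for Trp53inp1, 0.875 for Sesn1, 0.850 for Cdkn1a, 0.833 for Irs2, 0.775 for Txnip and 0.764 for Fbxo32, but 0.049 for Igfbp1. Of 9878 other probe sets compared, the 8 genes most like the mean of the members were Rora (r = 0.943), Tsc22d3 (0.942), Mbtd1 (0.942), Ctdsp2 (0.936), Anapc16 (0.934), Crebrf (0.930), Slc25a33 (0.927) and Klf13 (0.924). Tsc22d3, which encodes the glucocorticoid-induced leucine zipper GILZ, was higher in null arrays of every tissue, least in brain (0.65) and kidney (0.90), more in stomach (1.46) and liver (1.61) and most in salivary tissue (2.49). Rora, a nuclear receptor of the clock and of lipid metabolism, was higher by 0.29 to 0.87. The arrays share their tissues and genotypes, so these values of r describe a shared genotype difference as well as any likeness within groups.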

How the data were processed

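Per the submitters' processing notes the authors used MAS5 (version not given in the sources used here), and the deposited values are on a log2 scale. Base 2 was settled from the values, since the 2% trimmed mean of the linear signals then lay between 149.988 and 150.008 on all 30 arrays. Values were used as given. Symbols came from the platform annotation, with 1 symbol for 20380 of 22626 probe sets, and a gene is represented by its brightest probe set. In each tissue, probe sets whose mean over 6 arrays reached the 40th percentile were tested with limma 3.58.1 in R 4.3.3 (lmFit, eBayes with trend; Benjamini-Hochberg, adjusted p under 0.05). Fits over all 30 arrays gave the average effect and its F test between tissues, and over 15 wild-type arrays the tissue levels. The steps were tested on simulated data. Marker and pathway lists (7 lists, 188 genes, 166 measured; some genes are on several) are listed by textbook role; marker sums are log2 of summed linear signals. The members and lists were chosen with earlier results of these data known. Named genes were all members and relatives, up to 4 per other list by size of the average difference among genes passing in at least 1 tissue, and the 8 most correlated genes; the text marks names picked after their values were known. Alternatives were a floor at 5, no filter, quantile normalization, a fit over all arrays, a replicate block, the Gapdh gap as covariate and leaving out arrays. Of probe sets, 691 carried several symbols and 1555 none and were not named.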

Additional observations from a re-analysis of the deposited data

Results flagged for a closer look

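The difference between null and wild-type arrays was not equal in the 5 tissues for 20 of 45 named pathway genes (limma F test of the difference between tissues over all 30 arrays, Benjamini-Hochberg adjusted). Of all probe sets 15.3% varied in this way. With the array number within a genotype as a random block, added after seeing the data, the values were 20 and 16.5%. Most of the 45 were named because they passed in at least 1 tissue. Pdpk1, Socs3, Pik3r1, Eif4e, Eif4ebp1 and Perp, also named above, are not among the 45. The members were not tested in this way, since their genotype differences chose them.

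Scd1 stood out, lower in null stomach and higher in null salivary tissue (adjusted p = 2.83e-10). Among fasting genes the difference varied for Bnip3 (0.000419), Pdk4 (0.000518), Ppargc1a (0.00229) and Foxo1 (0.00311), each with its widest difference in liver or salivary tissue and little in brain. Ei24 (5.61e-05) and Lpin2 (0.00029) passed in liver alone when each tissue was tested, and Pim1 (0.0223) in salivary tissue alone. Of the amino acid genes Psat1 (0.000257), Asns (0.000378), Aars (0.000933) and Phgdh (0.00117) varied, with their largest falls in salivary tissue. Igf1 (0.00263) fell in liver and rose in stomach. Igfbp2 (0.00139), Lamtor2 (0.0272) and Thrsp (0.0491) fell in stomach and Pmaip1 (0.0156) rose there. Fasn (0.00604), Gpam (0.00717) and Cdkn1c (0.0128) completed the genes whose difference varied between tissues. The causes were not tested.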

How the results depend on the processing

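The differences of the 10 members kept their size within 1 SD in all 50 fits after quantile normalization. Leaving out 1 of 3 arrays cannot move a group mean that far, so the 300 fits without 1 array are no check by this measure. Txnip, Trp53inp1 and Igfbp1 in brain and Cdkn1a in stomach, all near 0 or dim, changed sign when some arrays were left out. The 1 member separated in brain became 1 to 5 when 1 array was left out. Counts of pathway genes called moved more, and the cause was not tested. With the Gapdh gap as covariate, a fit with fewer degrees of freedom, they went from 2 to 0 in kidney, 24 to 0 in stomach and 32 to 0 in liver. In salivary tissue, with equally few degrees of freedom, they went from 29 to 24. The Gapdh gap did not overlap between genotypes in stomach or liver, so its part and that of genotype cannot be told apart there. Kidney also gave 0 with no filter and 0 in 1 fit over all 30 arrays, and 1 after quantile normalization; liver gave 20 with no filter; and salivary tissue, at 29, gave 48 in 1 fit over all arrays. Added after seeing the data, stomach gave 0 once the 2 high-Alb wild-type arrays were left out and salivary tissue without the 2 of low Ucp1 gave 3. Leaving out 1 array gave 0 to 1 in brain, 0 to 10 in kidney, 12 to 44 in stomach, 10 to 40 in liver and 12 to 38 in salivary tissue, and leaving out 1 replicate number 34 to 66 on average over tissues (62 with all). The 16 member probe sets whose wild-type level differs between tissues became 18 with no filter, which tests all 19, and stayed 16 in number otherwise. With the replicate number as a block, salivary tissue gave 17 and no other count of pathway genes moved by over 1.5 times. Deviations of same-numbered null and wild-type arrays correlated between -0.239 and 0.143. With 3 arrays per group these values cannot decide whether the numbers pair null with wild-type arrays. Within a genotype, deviations of same-numbered arrays of different tissues correlated at a median of 0.0755 (null) and 0.0373 (wild-type), against -0.0259 and -0.025 for different numbers. With that number as a random block across tissues, added after seeing the data, 54 pathway genes passed on average. Dim probe sets limit Fbxo32 in liver and brain and Igfbp1 in brain and salivary tissue. Fbxo32 in kidney and Irs2 in stomach and salivary tissue passed the filter only through their null arrays. The 3 arrays per group limit all precision.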
